A study of Monodelphis domestica with 8 samples.

Results

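The peaks described here are the 7485 H3K27me3 peaks on chromosomes 1 to 8, the autosomes of the gray short-tailed opossum (Monodelphis domestica), out of 17394 in the deposited H3K27me3 list. They were chosen by chromosome name alone, and peaks on chromosome X and on unplaced sequence were left out. The study profiled 4 histone marks by chromatin immunoprecipitation and sequencing in female fetal brain at embryonic day 13. The H3K27me3 list belongs to 2 libraries made with an Upstate-Millipore antibody, each from the pooled brains of 2 sister fetuses, one pool from an LL2 mother and an LL2 father and the other from an LL1 mother and an LL2 father. The labels name no treatment, and whole fetal brain is a mixture of cell types, so a peak can come from any fraction of the cells.

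Trimethylation of lysine 27 on histone H3 is written by EZH1 and EZH2, the catalytic subunits of Polycomb repressive complex 2. The mark can be bound by the same complex through its subunit EED, which helps it spread from a point of recruitment over neighbouring nucleosomes, and in developing tissues broad stretches are known over genes for developmental regulators. Promoters that carry H3K27me3 together with H3K4me3, the mark of active and poised promoters, are called bivalent. These statements are background, and no gene is named below because the lists hold positions only and no source used here names their genome build. Positions are printed as chromosome, start and end in the coordinates of the list, counting from 1.

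Both libraries name a single pooled list, so there is one value per quantity, no replicate error and no test between chromosomes. The 95% intervals below are exact binomial for shares and from binomial order statistics for medians. They treat peaks as independent, which neighbouring peaks are not, and they cover counting of peaks only. The list holds no read counts, so the depth behind a peak is unknown.

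Peaks were spread over the 8 autosomes nearly in proportion to length, with chromosome 7 the sparsest. Autosome lengths were measured between the outermost peaks of the 4 lists and summed to 3418 Mb. Chromosome 1, with 21.9% of that length, held 1785 peaks, 23.8% of the total. Chromosome 7, with 7.63% of the length, held 405 peaks, 5.41% of the total. The remaining 6 held 1344 peaks on chromosome 2, 1032 on chromosome 3, 946 on chromosome 4, 625 on chromosome 5, 662 on chromosome 6 and 686 on chromosome 8.

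Expressed as density, the autosomes together had 2.19 peaks per Mb. Chromosome 2 had the most, 2.48 per Mb, followed by 2.39 on chromosome 1, 2.27 on chromosome 6, 2.22 on chromosome 8, 2.17 on chromosome 4, 2.05 on chromosome 5, 1.95 on chromosome 3 and 1.55 on chromosome 7. The highest was 1.60 times the lowest, and without chromosome 7 the ratio was 1.27. The first place was not stable. Chromosome 6 came before chromosome 2 when peaks under 5 kb apart were joined, with 1.49 against 1.44 per Mb. It also did so without the peaks of the densest 1% of 1 Mb bins, with 2.12 against 2.10 per Mb. In that alternative the remaining peaks were still divided by the full length of the autosome. Among the top-scoring 50% of peaks chromosome 2 was first with 1.32 per Mb and chromosome 6, with 0.992, was above chromosomes 3 and 7 only. Chromosome 7 was the lowest under these 3 alternatives, with 0.893, 1.24 and 0.694 per Mb. With all peaks counted, chromosome 7 held 0.709 times the number of peaks in proportion to its length, and chromosome 2 held 1.13 times.

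The share of sequence under peaks gave a somewhat different order, though chromosomes 7 and 3 were lowest in both. Peaks covered 0.546% of the autosomes, 18.6 Mb in all. Cover was 0.671% on chromosome 1, 0.617% on chromosome 2, 0.539% on chromosome 8, 0.520% on chromosome 5, 0.506% on chromosome 4, 0.497% on chromosome 6, 0.463% on chromosome 3 and 0.365% on chromosome 7. On chromosome 1, 2 neighbouring 1 Mb bins, starting at 332 and 333 Mb, held 8.95% of the covered bases. Without them its cover was 0.611%, against 0.617% on chromosome 2, from which no bin was removed. Chromosome 2 also had a 1 Mb bin with 18.6% cover, so this removal does not decide which of them is first.

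These differences between autosomes were small beside the variation within each of them. Among 339 full segments of 10 Mb the density ran from 0 to 13.3 peaks per Mb, with a median of 1.60 and an interquartile range of 0.700 to 2.75. The standard deviation among segments was 1.44 per Mb on chromosome 5, the lowest, and 2.66 per Mb on chromosome 2, the highest. The autosome a segment lay on accounted for 1.65% of the variance of segment density. No value for random groups of segments was computed beside this share. The whole-autosome values all lay within the interquartile range of the segments. Each is close to a mean of these same segments, so this is not separate support.

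**Figure D1:**
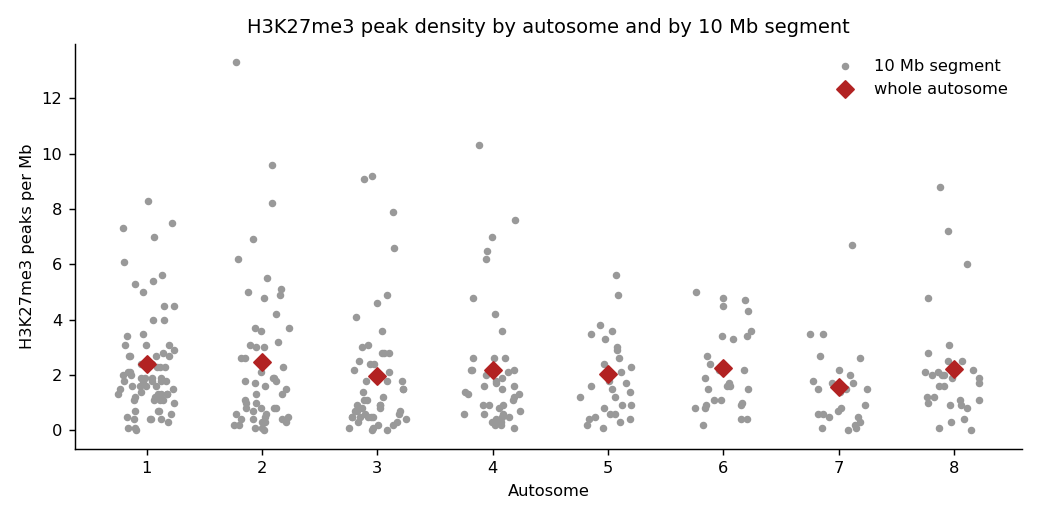
H3K27me3 peaks per Mb (vertical axis) on the 8 autosomes (horizontal axis); grey points are full 10 Mb segments, spread sideways only for legibility, and red diamonds are whole autosomes. The diamonds lie between 1.55 and 2.48, while the segments of the autosomes run from 0 to 13.3.

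The densest 10 Mb segment of each autosome differed in place and in size. The highest of all was the first segment of chromosome 2 (chr2:1-10000000), with 133 peaks and 3.02% cover. It was followed among the autosomes' densest segments by 380 to 390 Mb on chromosome 4 with 103 peaks, 440 to 450 Mb on chromosome 3 with 92, 290 to 300 Mb on chromosome 8 with 88 and 110 to 120 Mb on chromosome 1 with 83. The densest segments of chromosomes 7, 5 and 6 were weaker, with 67, 56 and 50 peaks. At the other end, 6 segments held no peak, of which 2 were neighbours on chromosome 3 from 120 to 140 Mb.

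Along the numbering of the list, density was highest toward the last part of the autosomes. When each autosome was divided into 10 equal parts, the pooled density was 2.86 peaks per Mb in the first part, between 1.47 and 1.98 in the second to eighth, 3.07 in the ninth and 4.38 in the last. The last part was denser than the rest of the same autosome on 8 of 8 autosomes, by 1.79 times on chromosome 6 at the least and 3.11 times on chromosome 8 at the most. It was the densest part on chromosomes 1, 6 and 8, while on chromosomes 3 and 4 the ninth part was denser, at 5.57 and 6.32 peaks per Mb. Chromosome 2 had 3 dense parts, the first (5.23 per Mb), the fourth (5.47 per Mb) and the last (4.93 per Mb).

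The share of peaks that met H3K4me3 was lower in this last part than in the rest of the same autosome. Over all 7485 autosomal peaks, 52.6% (95% interval 51.4% to 53.7%) shared at least 1 bp with an H3K4me3 peak. Of the 1496 peaks in the last part 35.7% (33.3% to 38.2%) did so, against 56.8% (55.5% to 58.0%) of the remaining 5989. It was lower in the last part on 8 of 8 autosomes, and the intervals did not overlap on 6 of them. The widest difference was on chromosome 5, with 24.8% against 60.2%, and the narrowest on chromosome 8, with 44.9% against 55.7%. A low share was not particular to the last part. Pooled over the autosomes, the share was 45.96% in the first part and 49.3% in the ninth, the other dense parts. In the second to eighth parts it lay between 57.7% and 66.3%. The median score in the last part was lower on 7 of 8 autosomes, chromosome 8 being the exception, with 127 against 118. The median width in the last part was also lower on 7 of 8 autosomes, again with chromosome 8 as the exception. Pooled over the autosomes it was 1383 bp in the last part against 1507 bp in the rest. Narrow peaks met H3K4me3 less often, as given below, and the part of width in the lower share was not tested. H3K4me3 peaks themselves were denser in the last part, at 10.01 per Mb against 6.46 per Mb over the autosomes. Base composition and mappability may differ along a chromosome, and their part in these values was not tested because no sequence of the list's build was used.

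**Figure D2:**
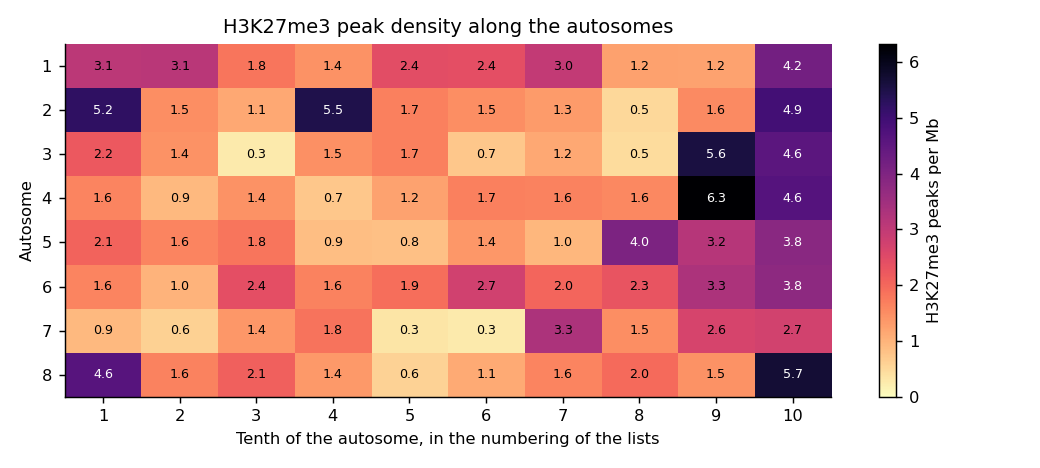
H3K27me3 peaks per Mb in 10 equal parts of each autosome (columns, in the numbering of the lists) for chromosomes 1 to 8 (rows), with darker colour for higher density and the value printed in each cell. The last column runs from 2.7 on chromosome 7 to 5.7 on chromosome 8 and every one of its cells exceeds the mean of the rest of its row.

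Most peaks were narrow and a small number were very wide. The median width was 1478 bp (1448 to 1509), the middle 50% of peaks lay between 979 and 2609 bp, and the 95th and 99th percentiles were 7374 and 17305 bp. Of all peaks, 1953 (26.1%) were under 1 kb, and these held 8.73% of the covered bases. The 228 peaks over 10 kb, 3.05% of the total, held 20.7% of the covered bases. The narrowest peak measured 380 bp.

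Median width varied little between autosomes. It was 1552 bp on chromosome 1, 1540.5 bp on chromosome 2, 1479 bp on chromosome 4, 1463.5 bp on chromosome 8, 1438 bp on chromosome 5, 1424.5 bp on chromosome 3, 1411 bp on chromosome 6 and 1336 bp on chromosome 7. Of the 28 pairs of autosomes, the 95% intervals were apart for 3, chromosome 1 against 6 and 7 and chromosome 2 against 7. Among the top-scoring 50% of peaks chromosome 2 had the lowest median of the 8, 2439 bp, below the 2602 bp of chromosome 7, while chromosome 1 still had the highest, 2826 bp. A single cut on score kept 716 of 1344 peaks on chromosome 2 and 181 of 405 on chromosome 7. These medians are therefore not a check on those of all peaks. The autosome accounted for 0.384% of the variance of log10 width. Differences were larger among wide peaks. The share of peaks over 10 kb was 4.20% on chromosome 1 (75 peaks) and 1.51% on chromosome 6 (10 peaks), with the other autosomes between 2.33% and 3.68%.

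The 5 widest peaks came from 4 autosomes. The widest, chr1:332642675-332715021, measured 72.3 kb, overlapped 7 H3K9me3 peaks and no H3K4me3 peak, and lay 43.1 kb from the nearest one. The second, chr1:333204920-333254565, measured 49.6 kb and overlapped 6 H3K4me3 and 17 H3K9me3 peaks. H3K9me3 is known from constitutive heterochromatin such as that of repeats. The third, chr4:187431092-187478660 (47.6 kb), overlapped 3 H3K4me3 peaks and 1 H3K9me3 peak. The fourth, chr2:201354640-201397863 (43.2 kb), overlapped 1 H3K4me3 peak, and the fifth, chr7:211741964-211782981 (41.0 kb), overlapped 3 H3K4me3 and 3 H3K9Ac peaks, H3K9Ac being an acetylation mark of active promoters. All 5 held the score 3100.

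Scores, which are the authors' value per peak and are compared here only within this list, were concentrated near their lower limit. They ran from 50.01 to 3220 with a median of 120.4 (116.8 to 123.9) and an interquartile range of 66.6 to 287, and 43.3% were below 100. At the upper end 125 peaks held exactly 3100 and 7 exceeded it. No other score was held by more than 14 peaks, and the 132 peaks at or above 3100 are therefore treated as a single class. The highest score, 3220, belonged to chr5:95949355-95960092, a peak of 10.7 kb that overlapped 1 H3K4me3 peak.

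Between autosomes the median score was 129.8 on chromosome 2, 129.6 on chromosome 1, 119.3 on both chromosomes 8 and 4, 118.3 on chromosome 5, 117.8 on chromosome 3, 103.8 on chromosome 6 and 102.8 on chromosome 7. The intervals were apart for 4 of 28 pairs, each of chromosomes 1 and 2 against each of 6 and 7. For neighbours in the order the intervals overlapped throughout. Among the top-scoring 50% of peaks the median of chromosome 2, 277.9, was below the 282.6 of chromosome 7, and chromosome 1 was highest with 321.6. The cut was made on score itself, so these values describe upper tails and are not a check on the medians of all peaks. The share of peaks at or above 3100 was highest on chromosome 1, 2.63% (47 of 1785 peaks, 1.94% to 3.49%), and lowest on chromosome 7, 0.741% (3 of 405, 0.153% to 2.15%), and these intervals overlap. They were apart for 1 of 28 pairs, chromosome 1 against chromosome 3 with 0.969% (10 of 1032, 0.466% to 1.77%).

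Score and width carried nearly the same information. Across the 7485 peaks their Spearman rho was 0.93, and it lay between 0.92 and 0.94 within each autosome. This is a description across peaks of 1 list, and the part of read depth in it was not tested. The median score was 57.3 for peaks under 1 kb, 105 for 1 to 2 kb, 311 for 2 to 5 kb, 1075 for 5 to 10 kb and 2786 for 10 to 20 kb, and 60 of the 62 peaks over 20 kb were at or above 3100. The narrowest of the 132 peaks at or above 3100 measured 8201 bp.

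**Figure D3:**
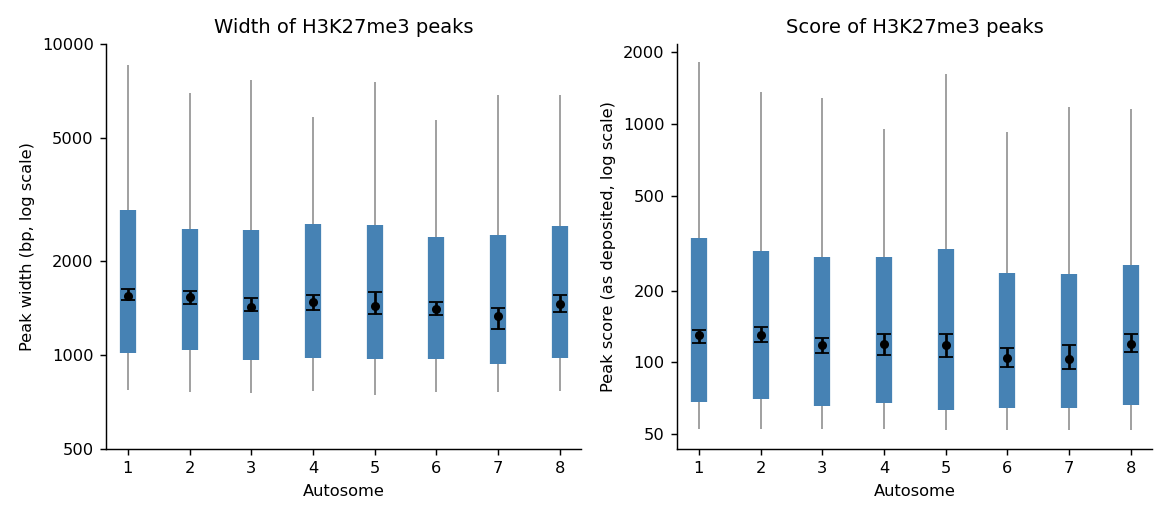
Width in bp (left) and score as deposited (right) of H3K27me3 peaks on each autosome, both on log axes; thin grey lines run from the 5th to the 95th percentile, blue bars cover the middle 50%, and black points are medians with 95% intervals. Median width runs from 1336 bp on chromosome 7 to 1552 bp on chromosome 1 and median score from 102.8 to 129.8, within ranges that overlap widely.

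The spacing of peaks had 2 modes. The gap from the end of a peak to the start of the next ran from 1 bp to 25.7 Mb with a median of 33.3 kb. In classes of equal width on a log scale, the count rose to 880 gaps between 316 and 1000 bp, fell to 425 between 3.16 and 10 kb, and rose again to 1117 between 316 kb and 1 Mb. Every one of the 8 autosomes had fewer gaps between 3.16 and 10 kb than in either of these other classes. Gaps under 5 kb made up 40.0% (38.9% to 41.1%) of the total and gaps over 1 Mb 12.5%.

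Many of the short gaps were very short. Of the 2992 gaps under 5 kb, 896 (29.9%) were under 200 bp, 575 under 100 bp and 314 under 50 bp. Such pairs are separate rows of the list that almost touch. The long gaps held most of the sequence, since the 933 gaps over 1 Mb took up 72.8% of the autosomal length. They were not empty of active marks. Only 9 of them contained no H3K4me3 peak, though gaps of this length would rarely lack one. Their density of H3K4me3 peaks was 4.24 per Mb, against 6.46 per Mb over the autosomes as a whole. For H3K9Ac it was 2.75 against 3.47 per Mb. Peaks of these marks that lie inside an H3K27me3 peak count in the whole but not in a gap, so the densities are not like for like.

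Short gaps were rarer on chromosomes 4 and 6. Gaps under 5 kb made up 34.9% (31.9% to 38.1%) on chromosome 4 and 34.6% (31.0% to 38.4%) on chromosome 6. On the other 6 autosomes they made up between 40.1% on chromosome 8 and 42.6% on chromosome 7. The intervals were apart for 6 of 28 pairs, all of which involved chromosome 4 or 6, with chromosomes 1, 2 or 5 on the other side. The median gap, between 21.9 kb on chromosome 2 and 50.7 kb on chromosome 4, had intervals apart for 0 of 28 pairs.

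The 3 longest gaps were chr3:114808672-140547555 (25.7 Mb), chr2:301548217-322059792 (20.5 Mb) and chr7:139433772-157575127 (18.1 Mb). The first held 17 H3K4me3 peaks, 0.660 per Mb, the second 44, 2.15 per Mb, and the third 20, 1.1 per Mb, so all 3 were poorer in H3K4me3 than the autosomes as a whole. The longest gap of the remaining autosomes measured 14.8 Mb on chromosome 1, 13.9 Mb on chromosome 5, 12.1 Mb on chromosome 8, 11.5 Mb on chromosome 4 and 8.89 Mb on chromosome 6. Assembly gaps could not be separated from sequence without peaks, because no sequence of the list's build was used.

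**Figure D4:**
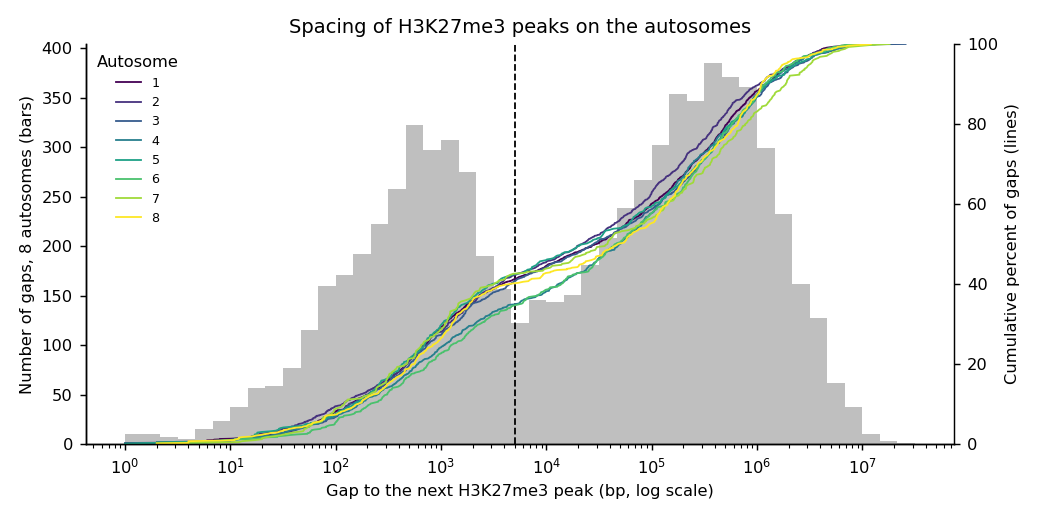
Gaps between neighbouring H3K27me3 peaks on a log axis in bp, as the number over the 8 autosomes (grey bars, left axis) and as the cumulative percent on each autosome (coloured lines, right axis); the dashed line marks 5 kb. The bars form 2 humps on either side of about 5 kb, and at the dashed line the lines of chromosomes 4 and 6 lie lowest, at 34.9% and 34.6%.

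Peaks less than 5 kb apart were next joined into domains, a distance that falls in the dip between the modes. The 7485 peaks formed 4493 domains, of which 2873 were single peaks, 1016 held 2 peaks, 508 held 3 to 5, 86 held 6 to 10 and 10 held more than 10. Single peaks made up 38.4% of all peaks and 29.2% of covered bases. The 96 domains of 6 or more peaks held 10.2% of the peaks and 17.8% of the covered bases.

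The share of peaks in domains of 3 or more was 34.5% (33.4% to 35.6%) over the autosomes and fell into 2 levels. It was 26.4% (23.6% to 29.4%) on chromosome 4 and 26.6% (23.3% to 30.1%) on chromosome 6, and between 34.5% and 37.3% on the other 6. The intervals were apart for 12 of 28 pairs. These were all 12 pairs of chromosome 4 or 6 with one of the other 6. Without the densest 1% of 1 Mb bins the share of chromosome 7 was 27.2%, close to the 22.4% and 24.9% of chromosomes 4 and 6, while the other 5 lay between 30.5% and 36.5%.

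Domains over 20 kb numbered 196 and were most frequent on the 2 longest autosomes. Chromosome 1 had 7.49 per 100 Mb (56 domains) and chromosome 2 had 7.02 (38 domains). Chromosome 4 had 3.68 (16 domains) and chromosome 7 had 3.45 (9 domains), with the other 4 between 4.46 and 5.68. No interval was computed for these rates, and the order rests on small counts of 9 to 56 domains. These domains held 14.3% of the peaks and 33.2% of the covered bases, with a median span of 29.2 kb of which a median of 91.1% lay under peaks. Of the 196, 175 (89.3%) touched H3K4me3, 42 (21.4%) touched H3K9Ac and 18 (9.18%) touched H3K9me3. Among the 2873 single-peak domains of any length the shares were 58.2%, 9.26% and 1.67%. Among the 1016 domains of 2 peaks they were 75.3%, 11.8% and 1.48%. Long domains have more room to touch a peak, and the part of length in these shares was not tested.

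The longest domain, chr1:332954375-333265345, measured 311 kb, of which its 35 peaks filled 91.9%. It overlapped 32 H3K9me3 peaks, 11 H3K4me3 peaks and no H3K9Ac peak. A second long domain of chromosome 1, chr1:332591442-332715021 (124 kb, 10 peaks), lay 239 kb away and overlapped 11 H3K9me3 peaks and 1 H3K4me3 peak. No other domain among the 10 longest overlapped more than 2 H3K9me3 peaks. The 2 bins around this pair held 61 of the 7485 autosomal H3K27me3 peaks, and 10 of the 94 that met H3K9me3.

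The remaining 3 of the 5 longest domains overlapped H3K9Ac, which neither of these domains of chromosome 1 did. The second longest, chr8:297273075-297435740 (163 kb, 17 peaks), overlapped 11 H3K4me3 and 6 H3K9Ac peaks. The third, chr2:201099206-201246008 (147 kb, 12 peaks), overlapped 16 H3K4me3 peaks and 1 H3K9Ac peak. The fourth, chr4:187408699-187543137 (134 kb, 8 peaks), overlapped 15 H3K4me3, 3 H3K9Ac and 2 H3K9me3 peaks. Their peaks had median scores of 1146, 1938 and 2274, far above the median of 120.4 over the autosomes.

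The longest domains of the other autosomes were shorter. They were chr3:203922140-204022727 (101 kb, 8 peaks), chr7:211725120-211812358 (87.2 kb, 8 peaks), chr5:95899381-95962885 (63.5 kb, 10 peaks) and chr6:36280999-36341078 (60.1 kb, 3 peaks). These overlapped 8, 9, 1 and 4 H3K4me3 peaks. The chromosome 5 domain contains the highest-scoring peak of the autosomes. Every autosome thus had at least 1 domain of 60 kb or more, and the longest of chromosome 1 was 5.18 times as long as the longest of chromosome 6.

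Peaks in larger domains were wider and scored higher. The median width was 1316 bp (1272 to 1363) for single peaks, 1465 bp in domains of 2, 1692 bp in domains of 3 to 5, 2125 bp in domains of 6 to 10 and 2421 bp (1910 to 2973) in the 10 largest. The median score was 95.4, 119.5, 150.9, 214.8 and 227.4 in the same order. Both medians were higher in domains of 3 or more than among single peaks on 8 of 8 autosomes. Of the 132 peaks at or above 3100, 95 lay in domains of 3 or more and 12 stood alone. Neighbours less than 5 kb apart were weakly alike, with a Spearman rho of 0.25 for score over 2992 pairs, and 0.04 over the 973 pairs from 5 to 50 kb apart.

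The share of peaks that met H3K4me3 was lower in domains of 3 or more, though not in domains of 2. Of the single peaks 58.2% (56.3% to 59.97%) overlapped H3K4me3, of those in domains of 2 59.0%, of those in domains of 3 to 5 44.1%, of those in domains of 6 to 10 37.5% and of those in the 10 largest 23.1% (16.7% to 30.5%). The 10 largest held only 156 peaks on 4 autosomes, so their intervals, which treat peaks as independent, are likely too narrow. In 5 of the domains with the most peaks, 5 of 35, 8 of 17, 0 of 17, 3 of 16 and 5 of 14 peaks met H3K4me3. The share in H3K4me3 was lower in domains of 3 or more than among single peaks on 8 of 8 autosomes. Counted by domain, the order reversed, since 58.2% of single-peak domains and 75.3%, 79.1%, 84.9% and 90.0% of the larger classes touched at least 1 H3K4me3 peak. A longer domain has more room to touch one. By bases, 38.6% of the sequence under single peaks and 15.8% of that under peaks of the 10 largest domains lay under H3K4me3. The share in H3K9Ac was 9.26% among single peaks and between 3.21% and 6.004% in the other classes, and it was lower in domains of 3 or more on 7 of 8 autosomes, with 10.7% against 10.9% on chromosome 7.

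**Figure D5:**
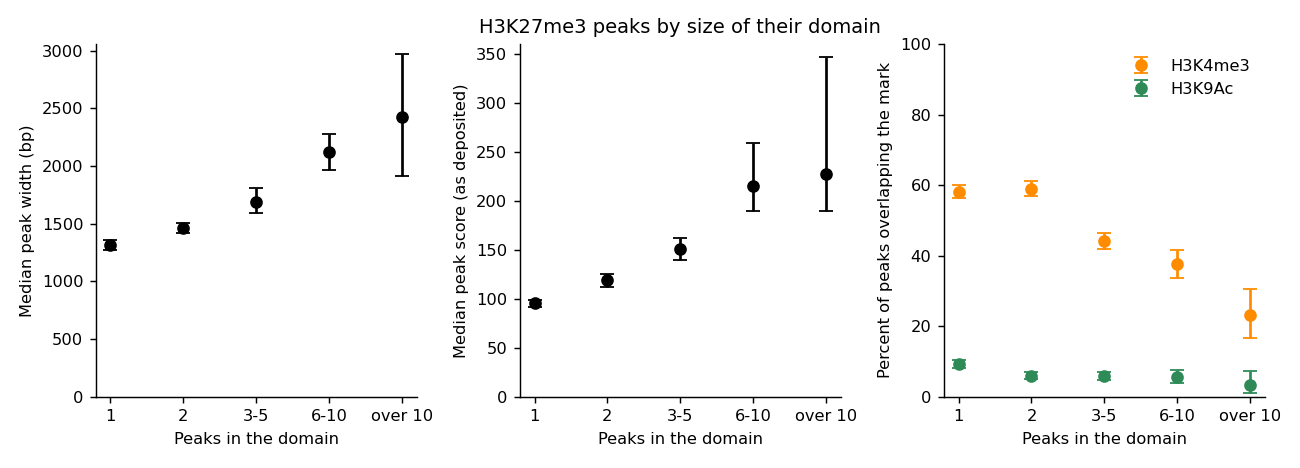
H3K27me3 peaks grouped by the number of peaks in their domain (horizontal axes), with the median width in bp, the median score and the percent of peaks that overlap H3K4me3 (orange) or H3K9Ac (green); bars are 95% intervals. Width and score are lowest for single peaks, at 1316 bp and 95.4, while the H3K4me3 share is 58.2% for single peaks and 23.1% in the 10 largest domains. Those domains hold 156 peaks on 4 autosomes, and the intervals treat them as independent.

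Within the list, the share that met H3K4me3 was higher among strong and wide peaks. In 10 equal classes of score the share in H3K4me3 was 35.4% (32.0% to 38.9%) in the lowest, 50.3% in the fifth and 67.3% (63.8% to 70.6%) in the highest. Peaks under 1 kb had 35.7% and peaks over 20 kb 77.4%, and a wider peak has more room to touch another. The share in H3K9Ac changed less, from 6.54% (4.88% to 8.56%) in the lowest of the 10 classes of score to 8.81% (6.88% to 11.1%) in the highest. By width it was 5.18% (4.22% to 6.28%) in the narrowest 25% of peaks and 7.91% (6.73% to 9.23%) in the widest 25%, and it reached 12.0% for peaks of 10 to 20 kb and 11.3% over 20 kb. Where an H3K27me3 peak met H3K4me3, a median of 61.7% of its bases lay under H3K4me3, and 753 of the 3934 lay wholly inside.

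Between autosomes the share of peaks that met other marks differed little beside its counting error. Over the autosomes 3934 peaks (52.6%) met H3K4me3, 534 (7.13%) met H3K9Ac and 94 (1.26%) met H3K9me3. The share of H3K27me3 peaks in H3K4me3 lay between 48.9% on chromosome 3 and 55.1% on chromosome 7. The share in H3K9Ac lay between 6.69% and 9.63% on the same 2 autosomes. The share in H3K9me3 lay between 0.744% on chromosome 2 (10 peaks) and 2.22% on chromosome 7 (9 peaks). For none of the 3 marks were the intervals of any of the 28 pairs apart. In all, 3371 peaks met H3K4me3 alone, 500 met H3K4me3 and H3K9Ac, and 3501 met none of the 3 marks. The last were narrower than those with H3K4me3 alone (median 1241 bp against 1830 bp) and lower in score (89.6 against 160.4), and both differences had the same direction on 8 of 8 autosomes.

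Peaks that did not meet H3K4me3 mostly lay within 50 kb of an H3K4me3 peak. The median gap between neighbouring H3K4me3 peaks was 54.5 kb, and the distance from other positions was not computed. Of all peaks 17.5% lay under 5 kb from an H3K4me3 peak without touching it, 19.7% lay 5 to 50 kb away, 9.95% lay 50 to 500 kb away and 19 peaks lay farther. The median distance of those apart was 11.7 kb, and by autosome it ran from 10.3 kb on chromosome 4 to 14.9 kb on chromosome 5. The 19 distant peaks were found on chromosomes 1 (9 peaks), 3 (6), 5 (2) and 7 (2). The most distant, chr5:75836322-75837294, was chosen after its values were seen and lay 1.99 Mb from the nearest H3K4me3 peak, with a width of 973 bp and a score of 77.6.

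Counted in bins, a small part of the autosomes held a large part of the peaks. Of 3417 full 1 Mb bins, 1564 (45.8%) held no peak, 580 held 1, 167 held 10 or more and 23 held 20 or more. The densest 5% of bins held 35.2% (34.1% to 36.3%) of the peaks. The variance of the count was 7.23 times its mean, whereas the 2 are equal for independent random placement. Neighbouring bins were alike, with a Spearman rho of 0.34 between adjacent bins, 0.19 at 5 Mb and 0.07 at 20 Mb.

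With all bins counted, chromosome 7 was the most uneven autosome and chromosome 6 the most even. On chromosome 7, 56.9% of bins were empty, the densest 5% held 48.2% of the peaks, and the variance was 12.0 times the mean. On chromosome 6, 40.2% were empty, the densest 5% held 30.1% and the ratio was 4.99. The other autosomes lay between them in all 3 measures. A single bin of chromosome 7, chr7:173000001-174000000, held 53 of its 405 peaks and had 11.6% cover. Without that bin the variance was 6.10 times the mean. When every autosome was taken without its densest bin, chromosome 7 still had the highest empty share (57.1%) and the highest share of peaks in the densest 5% of bins (42.0%), but chromosomes 2 and 1 had higher ratios of variance to mean (7.45 and 6.20). Both shares also depend on the mean count per bin. With all bins counted it was lowest on chromosome 7, at 1.52 against 2.18 over the autosomes, and its part in them was not tested.

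The densest bin of the autosomes, chr1:111000001-112000000, held 59 peaks that covered 20.7% of it, 45 of them in domains of 3 or more. It contained 24 H3K4me3 peaks, and 30.5% of its H3K27me3 peaks met one. The densest bins of chromosomes 2, 3, 8, 4, 6 and 5 held 42, 35, 32, 27, 22 and 18 peaks. They differed in strength, since 8 of the 32 peaks in chr8:297000001-298000000 scored 3100 and none of the 27 in chr4:397000001-398000000 exceeded 414. The densest bin of chromosome 2, chr2:8000001-9000000, lay inside the densest 10 Mb segment and 11.9% of its peaks met H3K4me3. In the densest bins of chromosomes 3, 4 and 5 the share was 57.1%, 29.6% and 11.1%. In those of chromosomes 6, 7 and 8 it was 45.5%, 30.2% and 31.25%, against 52.6% over all autosomal peaks.

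Bins with more H3K27me3 peaks also had more H3K4me3 peaks. Across the 3417 bins the Spearman rho of the 2 counts was 0.61, and it lay between 0.54 on chromosome 7 and 0.70 on chromosome 5. It was 0.40 with H3K9Ac and 0.07 with H3K9me3. Across the 8 autosomes the density of H3K27me3 peaks had a Pearson r of 0.90 (rho 0.90) with that of H3K4me3 peaks and 0.91 (rho 0.93) with that of H3K9Ac peaks, and chromosome 2 was highest and chromosome 7 lowest for all 3 marks. With H3K9me3 r was 0.00 (rho -0.02). These are descriptions over bins or 8 chromosomes of lists that share chromatin, genome and length, and gene density and base composition, which they may also share, were not tested.

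Set beside the other lists on the same autosomes, H3K27me3 had the longest tail of wide peaks and the highest share of short gaps. Its median width of 1478 bp lay between the 1017 bp of H3K9Ac and the 2029 bp of H3K4me3. Peaks over 10 kb numbered 228 of 7485, against 49 of 22086 for H3K4me3, 0 of 11858 for H3K9Ac and 1 of 699 for H3K9me3. Gaps under 5 kb made up 40.0% for H3K27me3, 16.3% for H3K4me3, 15.9% for H3K9Ac and 9.12% for H3K9me3. The share of peaks in domains of 3 or more was 34.5%, 8.43%, 6.56% and 7.58% in the same order. The lists differ in number of peaks and in depth, which is unknown, so these values are given side by side with no test.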

How the data were processed

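Per the labels' protocols, the chromatin of sister fetuses was cut with micrococcal nuclease, combined and split among the antibodies. The submitters' processing notes list the base caller CASAVA 1.7, the aligner Bowtie 1.1.2 and the peak caller MACS 1.0.1 but no settings. No source used here states the genome build, a control library, the peak threshold or how the 2 libraries were combined. The deposited lists hold the start and end position and a score per peak. The score is the authors' own value, with no formula in the header.

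Peaks of chromosomes 1 to 8 were kept without a filter. Bins and segments of 1 and 10 Mb were counted from position 0, full ones only, and a peak belongs to the bin of its midpoint. Overlap means at least 1 bp in common. Regions named are the 5 longest domains and the longest of each autosome, the 5 widest peaks, the highest-scoring peak, the densest bin and 10 Mb segment of each autosome, and the 3 longest gaps and the longest of each autosome. Members, measures and regions were chosen with earlier results of these data known. The alternatives were the top-scoring 50% of peaks, each autosome left out in turn, removal of the densest 1% of bins, other joining distances, bin sizes, lengths and overlaps, and removal of the top scores. The functions were tested on simulated lists with planted domains and overlaps. Scripts ran under Python 3.11.15 with scipy 1.17.1, pandas 2.3.3, numpy 2.4.6 and, for figures, matplotlib 3.10.9.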

Additional observations from a re-analysis of the deposited data

How the results depend on the processing

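No paired analysis was possible because both libraries of a mark were deposited as 1 pooled list, and no library could be left out for the same reason. Of 46 alternatives, 21 gave a value within the 95% interval of the value reported and 25 did not. These counts do not measure stability. Other joining distances and overlaps, and the score of the top-scoring peaks, change the quantity itself in a direction fixed beforehand. Leaving out each autosome was counted once for the lowest value and once for the highest. Among the top-scoring 50% of peaks the ratio of the highest to the lowest autosomal density was 1.91, the median width 2588 bp, the median score 286.9, the share of gaps under 5 kb 33.4%, the share of peaks in domains of 3 or more 27.4%, the share in the densest 5% of bins 41.1%, the share in H3K4me3 63.7% and the rho of width with score 0.88. With 1 autosome left out the density ratio fell as low as 1.27, without chromosome 7, and the share in domains rose as high as 35.6%, without chromosome 4. Without the densest 1% of bins (35 bins, 897 peaks) the share of short gaps was 37.0%, the share in domains 29.9%, the share in the densest 5% of the remaining bins 30.9% and the share in H3K4me3 55.4%. The densest 5% held 43.5% with bins of 500 kb, 29.0% with bins of 2 Mb and 28.7% when peaks under 5 kb apart were joined, which also raised the median width to 2224 bp. Joining under 2 kb gave 26.8% of peaks in domains and under 10 kb 38.8%, and gaps under 2 kb made up 34.4% and under 10 kb 43.3%. The share in H3K4me3, 52.6% as reported, was 43.1% when an overlap needed 50% of the shorter peak and 60.5% within 1 kb. Without the peaks at or above 3100 the rho was 0.928. Removals of 2 bins of chromosome 1, which put its cover at 0.611%, and of the densest bin of chromosome 7, which put the variance there at 6.10 times the mean, were chosen after seeing the data. Scores close to the lower limit of 50.01 and the 125 peaks that hold exactly 3100 limit comparisons of score at both ends, and the depth, which sets how many weak peaks can be called, is unknown.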
